A study of Mus musculus with 22 samples.

Results

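The apolipoproteins Apoa1, Apoa2, Apoa4, Apoa5, Apob, Apoc1, Apoc2, Apoc3 and Apoe, together with Mttp, the microsomal triglyceride transfer protein, were followed in mouse liver across 2 genotypes and 2 diets. The 10 genes were taken by symbol from a table of 55573 genes, and each had 1 row. Poly(A) RNA of 22 livers of C57BL/6 mice, 1 library per mouse, was sequenced. Control mice carried wild-type Flcn and 1 copy of an Albumin-driven Cre recombinase (Cre mice). In liver-Flcn-/- mice the same Cre removed exon 7 of floxed Flcn in hepatocytes, so that RNA of the other liver cells, which keep the gene, is part of each library. Flcn encodes folliculin, a regulator of nutrient signalling to mTORC1 and to the transcription factors TFEB and TFE3. From 6 weeks of age, mice of both genotypes were fed for 6 weeks either a chow with 10.0 kcal% fat or a diet without methionine and choline (MCD diet), a model of steatohepatitis. The study describes the MCD diet as also high in sucrose, and mice lost weight on it. The chow came from another supplier. Lack of methionine and choline thus cannot be told apart from other differences between the diets. The Cre groups held 6 mice (chow) and 5 (MCD), and the liver-Flcn-/- groups 5 mice (chow) and 6 (MCD). Livers were taken at 3 months of age.

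Apolipoproteins are the protein coat of plasma lipoproteins. In the hepatocyte, Apob forms the scaffold of very low density lipoprotein (VLDL), and the transfer protein encoded by Mttp loads lipid onto it in the endoplasmic reticulum. Apoa1 and Apoa2 are the main proteins of high density lipoprotein (HDL), Apoa4 is carried on chylomicrons, HDL and VLDL, Apoa5 and Apoc2 promote lipolysis by lipoprotein lipase, Apoc1 and Apoc3 restrain lipolysis or clearance, and Apoe is the ligand through which remnants are taken up. Choline is needed to make phosphatidylcholine, the main phospholipid of the VLDL surface.

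Between 13751347 and 21144388 counts fell on genes in each library. By Xist, 12 livers were high, read here as females, and 10 low, read as males. In 5 of the 12, Y-linked genes still had 180 to 675 counts, against at most 51 in the other high-Xist livers and at least 1906 in the low-Xist livers. They were replicate 2 of the Cre mice on chow, replicate 1 of the Cre mice on the MCD diet, replicates 2 and 4 of the liver-Flcn-/- mice on chow and replicate 3 of those on the MCD diet. Flcn itself, the check of the genotype labels, measured 31.7 ± 4.91 CPM (counts scaled to a library of 1000000; SD, n = 6) in Cre mice and 20.4 ± 2.78 (n = 5) in liver-Flcn-/- mice on chow, a log2 difference of -0.63 ± 0.17 (SE; adjusted p = 0.0249, edgeR quasi-likelihood test with Benjamini-Hochberg adjustment). On the MCD diet it measured 29.2 ± 8.42 (n = 5) and 26.0 ± 5.13 (n = 6), a log2 difference of -0.16 ± 0.17 (adjusted p = 0.567). Gene counts do not resolve exon 7, so the deletion itself was not visible here. All CPM values are on library sizes scaled by TMM, the trimmed mean of M-values. The libraries were rich in hepatocyte markers. Of 10 listed, 9 had a row, and the most abundant was Alb, the albumin gene, at 101060 CPM in Cre mice on chow.

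Members other than Apoa2, Apob and Mttp sit in 2 clusters of genes. On chromosome 9 of GRCm38, 43340 bases hold Apoa1 (46228580-46230466, plus strand), Apoc3 (46232933-46235636, minus strand), Apoa4 (46240696-46243459, plus strand) and Apoa5 (46268633-46271919, plus strand). On chromosome 7, 27610 bases of the minus strand hold Apoc2 (19671579-19677941), Apoc1 (19689481-19692660) and Apoe (19696109-19699188), with Apoc4 (19678083-19681479) between them. Apoa2 lies on chromosome 1 (171225054-171226379, plus strand), Apob on chromosome 12 (7977648-8016835, plus strand) and Mttp on chromosome 3 (138089854-138144968, minus strand).

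The bases just upstream of the 3 plus-strand genes of the chromosome 9 cluster are shown because these neighbours moved differently on the MCD diet, as given further on. The RefSeq promoter table (GRCm38.p6) held 8 of the 10 members. Each stretch is on the plus strand and stops before the first annotated start of the gene. Capitals mark 6-base motifs found in it.
Apoa1, chr9:46228380-46228579: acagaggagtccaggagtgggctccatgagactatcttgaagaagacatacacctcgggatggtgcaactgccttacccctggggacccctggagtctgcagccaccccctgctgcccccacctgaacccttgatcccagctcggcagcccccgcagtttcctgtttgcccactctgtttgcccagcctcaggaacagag
Apoa4, chr9:46240594-46240695: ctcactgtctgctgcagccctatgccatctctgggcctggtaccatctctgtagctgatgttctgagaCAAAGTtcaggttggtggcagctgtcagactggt
Apoa5, chr9:46268358-46268607: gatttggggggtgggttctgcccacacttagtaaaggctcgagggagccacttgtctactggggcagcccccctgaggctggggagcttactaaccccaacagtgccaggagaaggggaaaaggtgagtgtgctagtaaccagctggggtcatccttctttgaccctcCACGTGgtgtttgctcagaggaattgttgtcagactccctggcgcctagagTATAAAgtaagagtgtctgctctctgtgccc
The motifs searched on both strands were the E-box CACGTG, the TATA box TATAAA, the nuclear receptor site AGGTCA, the cyclic AMP response core TGACGT and the HNF4A part CAAAGT. Apoa5 held CACGTG, the core of the element that TFEB and TFE3 bind, which 6.02% of all 32851 promoter windows also held. It also held TATAAA, found in 12.4% of windows. Apoa4 held CAAAGT, found in 12.6% of windows. The Apoa1 stretch held none of these letters. These shares are for windows of 250 bases before the RefSeq start. The stretches shown held 200 bases for Apoa1, 102 for Apoa4 and 250 for Apoa5. In their full windows the matches were the same. A match is a description of the sequence only.

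Per kilobase of exon that no other gene on the same strand shares, Apoa2 stood at the top and Apoc2 at the bottom in Cre mice on chow. Mean levels there were 13579 CPM per kb for Apoa2, 9714 for Apoe, 8498 for Apoa1 and 6662 for Apoc1. Apoc3 stood at 2038, Apoa5 at 601, Apob at 349.6, Apoa4 at 324, Mttp at 61.8 and Apoc2 at 15.2. Some neighbouring pairs in this order were not separated in every liver. Apoe exceeded Apoa1 in 3 of 6 livers, Apoa1 exceeded Apoc1 in 4 of 6, and Apob exceeded Apoa4 in 4 of 6. On exon bases free of genes on both strands, Apoa4 instead stood at 1071 CPM per kb on chow, above Apoa5 at 758 and Apob.

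The order differed on the MCD diet, where Apoa4 was the third per kilobase in both genotypes on this length. In Cre mice it measured 5529.5 CPM per kb, above Apoa1 in 3 of 5 livers, and in liver-Flcn-/- mice 6023 CPM per kb, above Apoa1 in 5 of 6 livers. This length holds if reads were counted by strand, which is not given in the sources used here. Per kilobase of exon free of genes on both strands, Apoa4 measured 18280.0 CPM per kb in Cre and 19913 in liver-Flcn-/- mice on the MCD diet, and ranked first. By share of all counts, not corrected for length, Apoa4 was the 253rd most abundant gene of Cre mice on chow (0.0497% of counts) and the 4th on the MCD diet (1.13%). In liver-Flcn-/- mice it was the 79th on chow (0.160%) and the 6th on the MCD diet (1.23%). The 10 members together held 4.47 ± 0.253% of counts in Cre mice on chow, 5.78 ± 1.18% on the MCD diet, 4.85 ± 0.406% in liver-Flcn-/- mice on chow and 6.18 ± 0.903% on the MCD diet. These shares are not scaled by TMM. On TMM scaling their summed level was, in the same order, 52946 ± 3917, 51286 ± 11835, 51735 ± 3929 and 54973 ± 7794 CPM.

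**Figure D1:**
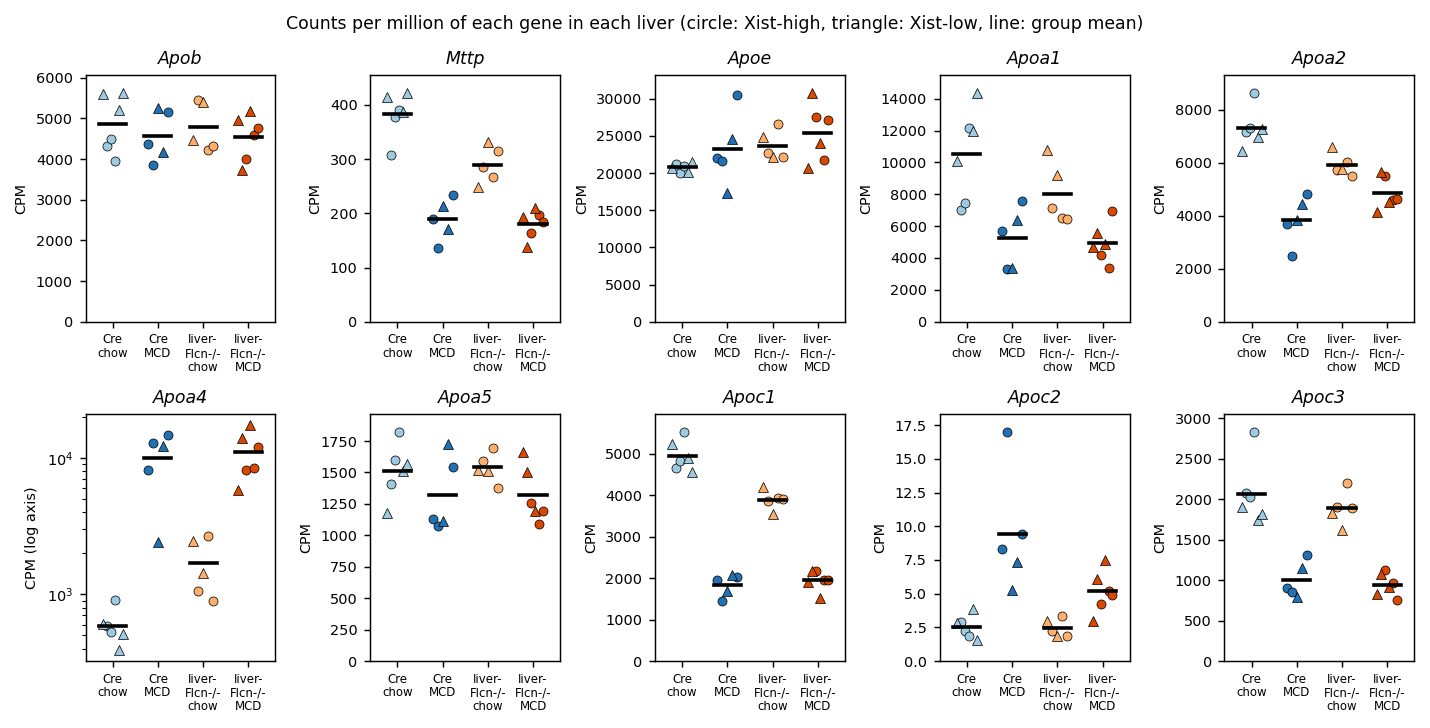
Level of each member in each liver, in CPM (TMM), by group. Each point is 1 mouse (circles, livers with high Xist; triangles, livers with low Xist), lines are group means, and only the Apoa4 axis is logarithmic. Apoa4 ranges from 392 to 2651 CPM on chow and from 2418 to 17344 CPM on the MCD diet, without overlap between diets within a genotype, while Apob and Apoa5 overlap between all groups.

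The first comparison asked how the MCD diet altered these genes in livers with Flcn. In Cre mice, 7 of the 10 members passed the test at an adjusted p under 0.05, 2 higher and 5 lower, with a median log2 difference of -0.56 over the 10. Of all 14062 genes tested, 57.5% passed in either direction, 29.3% higher and 28.2% lower, with a median of 0.01. The share of members called was thus near that of the whole transcriptome. Apoa4 and Apoc2 rose, while Apoa1, Apoa2, Apoc1, Apoc3 and Mttp fell. Apob, Apoe and Apoa5 did not pass the test.

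Apoa4 measured 392 CPM in the lowest Cre liver on chow, 559.8 in the median and 903 in the highest. On the MCD diet the 5 Cre livers measured 8096, 12871, 2418, 12217 and 14578 CPM. The groups did not overlap, and the lowest MCD liver was still above every chow liver. The log2 difference was 4.09 ± 0.41, a 17.1-fold rise (95% interval 9.46 to 30.8; adjusted p = 3.62e-08, edgeR quasi-likelihood test). The liver at 2418 CPM also held most of the skeletal muscle RNA of the series, with 2426 CPM summed over muscle markers. Replicate 4 of the same group, at 12217 CPM of Apoa4, had 119 CPM of muscle markers, and replicate 3 of the liver-Flcn-/- mice on the MCD diet 54.0 CPM, against at most 15.3 CPM in the other livers. For Apoa4, leaving out each mouse in turn gave log2 differences between 3.93 and 4.35, the highest without the liver at 2418 CPM.

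Apoc1, an inhibitor of lipoprotein clearance, fell most. It ranged over 4573, 4866 and 5527 CPM (lowest, median and highest) on chow and measured 1956, 1448, 1689, 2071 and 2029.8 CPM on the MCD diet. No MCD liver reached the lowest chow liver. The log2 difference was -1.43 ± 0.11, or 2.70-fold lower (adjusted p = 6.29e-10, edgeR). Apoc3, an inhibitor of lipoprotein lipase, fell by 1.04 ± 0.15 on the log2 scale (adjusted p = 4.52e-06, edgeR), from 2066 ± 395 CPM to 1004 ± 219.

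The genes for the main HDL proteins also fell. Apoa2 ranged over 6445, 7209.9 and 8633 CPM on chow and measured 3698, 2488, 3829, 4429 and 4834 on the MCD diet, a log2 difference of -0.92 ± 0.13 (adjusted p = 5.77e-06, edgeR) with no overlap. Apoa1 ranged over 7000.1, 11026 and 14365 CPM on chow and measured 5717, 3319, 3400.5, 6391 and 7592 on the MCD diet. The Apoa1 groups overlapped, since the highest MCD liver stood above the lowest chow liver. Its log2 difference was -0.99 ± 0.24 (adjusted p = 0.00135, edgeR).

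Of the pair that assembles VLDL, Mttp fell and Apob did not pass the test. Mttp ranged over 308, 389 and 422 CPM on chow and measured 189.6, 136, 214, 172 and 234 on the MCD diet, 2.03-fold lower (log2 -1.02 ± 0.13; adjusted p = 1.30e-06, edgeR) with no overlap. Apob measured 4871 ± 706 CPM on chow and 4563 ± 622 on the MCD diet, a log2 difference of -0.09 ± 0.12 (adjusted p = 0.527). The per-length ratio of Mttp to Apob had a median of 0.168 on chow and 0.0925 on the MCD diet.

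Apoc2 had few counts, between 19 and 394 per liver. It rose from 2.53 ± 0.849 to 9.45 ± 4.48 CPM (log2 1.90 ± 0.29; adjusted p = 9.58e-06, edgeR). Of its 813 exon bases, only 167 are free of Gm44805, a read-through gene on the same strand that runs from Apoc2 into Apoc4. Reads on the shared bases may not have been counted for either gene, so the Apoc2 level is uncertain. Apoe measured 20769 ± 608 and 23187 ± 4846 CPM (log2 0.16 ± 0.12; adjusted p = 0.282). Apoa5 measured 1515 ± 213 and 1319 ± 298 CPM (log2 -0.20 ± 0.14; adjusted p = 0.222).

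The scaling of the libraries bears on the direction of the genes that moved little. TMM factors averaged 0.846 in Cre mice on chow and 1.13 on the MCD diet. On library totals without these factors, the median of all genes moved up by 0.42 on the log2 scale. Apoe was then called higher (0.57; adjusted p = 2.22e-04, edgeR) and Apob turned from -0.09 to 0.33 (adjusted p = 0.0108, edgeR). Both values include the shift of 0.42. In liver-Flcn-/- mice the median moved by 0.26, and Apoe was called higher there as well (0.36; adjusted p = 0.0156, edgeR). Scaling to hepatocyte markers moved the median of all genes by 0.43 in Cre and 0.41 in liver-Flcn-/- mice. All values on this scaling include that shift. Apoe was then also called higher, by 0.59 in Cre (adjusted p = 0.00567) and 0.50 in liver-Flcn-/- mice (adjusted p = 0.0201, edgeR). In Cre mice, Apoa4 and Apoc2 stayed higher and Apoc1, Apoc3, Apoa2 and Mttp lower, each with its call, on every scaling tried. Apoa1 lost its call when libraries were scaled to hepatocyte markers (-0.62; adjusted p = 0.0606, edgeR). With that scaling in liver-Flcn-/- mice, Apoa2 turned to 0.11 (adjusted p = 0.576), and the falls of Apoa1 (-0.35; adjusted p = 0.286) and Mttp (-0.26; adjusted p = 0.233, edgeR) were not called. Apoa1 was not called there on library totals either (-0.44; adjusted p = 0.0902, edgeR).

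In liver-Flcn-/- mice the same diet comparison called 6 of the 10 members, 2 higher and 4 lower, with a median log2 difference of -0.26. The background was 45.0% of genes tested, 22.5% in each direction, with a median of 0.00. The 6 were Apoa4, Apoc2, Apoa1, Apoc1, Apoc3 and Mttp, each in the direction it had in Cre mice.

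Apoa4 measured 2438, 1054, 1436, 2651 and 899 CPM in the 5 livers on chow, and 5809, 10172 and 17344 CPM (lowest, median and highest) on the MCD diet. The groups did not overlap. The log2 difference was 2.69 ± 0.40, a 6.45-fold rise (95% interval 3.59 to 11.6; adjusted p = 1.49e-05, edgeR). Apoc2 rose from 2.46 ± 0.677 to 5.17 ± 1.55 CPM (log2 1.07 ± 0.29; adjusted p = 0.00488, edgeR).

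Apoc1 measured 4203, 3859.9, 3554, 3934 and 3919 CPM on chow and ranged over 1529, 1953 and 2176 on the MCD diet, 2.00-fold lower. On the log2 scale it fell by 1.00 ± 0.10 (adjusted p = 1.32e-07, edgeR). Apoc3 fell by 1.00 ± 0.14 on the log2 scale (adjusted p = 9.91e-06, edgeR), from 1891 ± 212 to 945 ± 143 CPM. Mttp measured 248, 286, 331, 266 and 316 CPM on chow and ranged over 137, 189 and 209 on the MCD diet (log2 -0.68 ± 0.13; adjusted p = 2.07e-04, edgeR). In all 3 genes the highest MCD liver stood below the lowest chow liver.

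Of the HDL genes, Apoa1 passed the test in liver-Flcn-/- mice and Apoa2 did not. Apoa1 fell from 8025 ± 1905 to 4937 ± 1227 CPM (log2 -0.70 ± 0.23; adjusted p = 0.0185, edgeR). This call was lost without replicate 1 of the liver-Flcn-/- mice on chow (-0.57; adjusted p = 0.0623). Apoa2 measured 6592, 5730.3, 5760.1, 6009 and 5505 CPM on chow and ranged over 4130.1, 4618 and 5642 on the MCD diet (log2 -0.29 ± 0.13; adjusted p = 0.0749), and these groups overlapped. Apob (log2 -0.07; adjusted p = 0.648), Apoe (0.10; adjusted p = 0.558) and Apoa5 (-0.23; adjusted p = 0.189) did not pass the edgeR test.

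**Figure D2:**
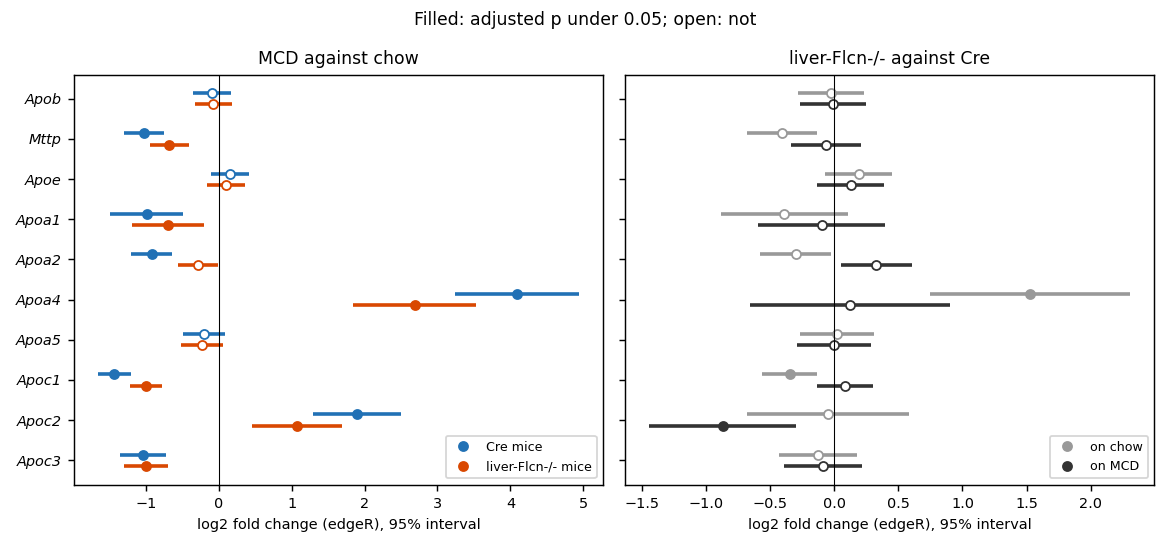
Log2 difference of each member with the diet (left) and with the genotype (right). Points are edgeR estimates, bars are 95% intervals, and filled points have an adjusted p under 0.05. Apoa4 shows the highest diet values, 4.09 (Cre) and 2.69 (liver-Flcn-/-), while most genotype intervals cross 0.

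The next comparisons asked what loss of Flcn did on each diet. On chow, 2 of the 10 members passed, beside a background of 8.62% of genes, 5.52% higher and 3.10% lower. Apoa4 was higher in liver-Flcn-/- mice by 1.53 ± 0.37 on the log2 scale, 2.88-fold (adjusted p = 0.0115, edgeR). The lowest liver-Flcn-/- liver, at 899 CPM, lay just under the highest Cre liver, at 903 CPM, so the groups overlapped. Apoc1 was lower by a log2 value of -0.35 ± 0.10 (adjusted p = 0.0383, edgeR), and its groups did not overlap.

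The Apoa4 call on chow rested on a few libraries. It was lost without replicate 4 of the liver-Flcn-/- mice (1.31; adjusted p = 0.0512, edgeR). It was also lost without 5 chow libraries that had a low share of uniquely mapped reads in the study's library statistics (1.18; adjusted p = 0.277). These 5 libraries were the 5 chow livers with low Xist, which by their Y-linked counts were from males, so that mapping and sex cannot be told apart on chow. In females alone the difference was 1.19 (adjusted p = 0.0968) and in males alone 1.97 (adjusted p = 0.141). The Apoc1 call on chow was lost in 9 of the 22 fits that left out 1 mouse. Between genotypes on chow, hepatocyte scaling moved the median of all genes by 0.23, and library totals without TMM factors by 0.15. These shifts are opposite in sign to the Apoc1 difference of -0.35, and on each of these scalings 1 member was called. Without the 5 high-Xist libraries with Y-linked counts, Apoa4 differed by 1.44 (adjusted p = 0.116) and Apoc1 by -0.37 (adjusted p = 0.211, edgeR).

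Mttp, Apoe and Apoa2 missed the edgeR threshold on chow. Mttp measured 289.5 ± 34.2 CPM in liver-Flcn-/- mice and 384 ± 40.8 in Cre mice (log2 -0.41 ± 0.13; adjusted p = 0.0542, edgeR). Apoe, at 24895, 22702, 22123, 26624 and 22148 CPM, was above the highest Cre liver in each liver-Flcn-/- liver, by 0.19 ± 0.12 on the log2 scale (adjusted p = 0.373, edgeR). Apoa2 measured 5919 ± 416 CPM against 7292 ± 729 in Cre mice, with overlap (log2 -0.30 ± 0.13; adjusted p = 0.163, edgeR). In two-sided exact permutation tests of single genes, 5 of the 10 members had an unadjusted p under 0.05 on chow, beside 23.4% of all genes tested, and 1 on the MCD diet, beside 26.2%. The same tests passed 7 members with the diet in each genotype, beside 56.4% of genes in Cre and 51.4% in liver-Flcn-/- mice.

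On the MCD diet 1 of the 10 members passed between genotypes, beside a background of 16.6% of genes, 8.06% higher and 8.53% lower. Apoc2 was lower in liver-Flcn-/- mice, by a log2 value of -0.87 ± 0.27 (adjusted p = 0.0318, edgeR). Cre livers measured 8.28, 17.0, 5.25, 7.33 and 9.43 CPM, and liver-Flcn-/- livers ranged over 3.00, 5.07 and 7.52, with overlap. Without the Cre liver at 17.0 CPM the difference was -0.55 (adjusted p = 0.143), and without the 5 high-Xist libraries with Y-linked counts -0.86 (adjusted p = 0.116, edgeR). Apoa4 did not pass, with 10036 ± 4879 CPM in Cre and 10932 ± 4296 in liver-Flcn-/- mice (log2 0.12 ± 0.37; adjusted p = 0.868). Apoa2 stood at 3856 ± 892 and 4839 ± 601 CPM (log2 0.33 ± 0.13; adjusted p = 0.0923).

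The interaction of genotype and diet tested whether the diet difference itself depended on Flcn. It called 1 of the 10 members, beside 8.83% of all genes, 3.29% higher and 5.54% lower. The log2 diet difference of Apoa2 was higher by 0.63 ± 0.19 in liver-Flcn-/- than in Cre mice (adjusted p = 0.0378, edgeR), that is, its fall was smaller. It combines the differences between genotypes of -0.30 on chow and 0.33 on the MCD diet, neither of which passed alone. This call was lost in 9 of the 22 fits that left out 1 mouse. For Apoa4 the interaction was -1.40 ± 0.52 (adjusted p = 0.0931), and for Apoc1 0.43 ± 0.15 (adjusted p = 0.0666). The Apoa4 interaction passed without replicate 3 of the Cre mice on the MCD diet, the liver rich in muscle RNA (-1.66; adjusted p = 0.0191, edgeR), and by DESeq2 on all livers (-1.41; adjusted p = 0.0464). The Apoc1 interaction passed without replicate 4 of the liver-Flcn-/- mice on the MCD diet, its lowest liver there (0.49; adjusted p = 0.0265, edgeR), and by DESeq2 (0.42; adjusted p = 0.0286). Whether either diet difference depended on genotype thus varied with the test and with single livers. Without the 5 high-Xist libraries with Y-linked counts, the interactions were 0.57 for Apoa2 (adjusted p = 0.281), -1.31 for Apoa4 (adjusted p = 0.346) and 0.44 for Apoc1 (adjusted p = 0.288, edgeR).

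**Figure D3:**
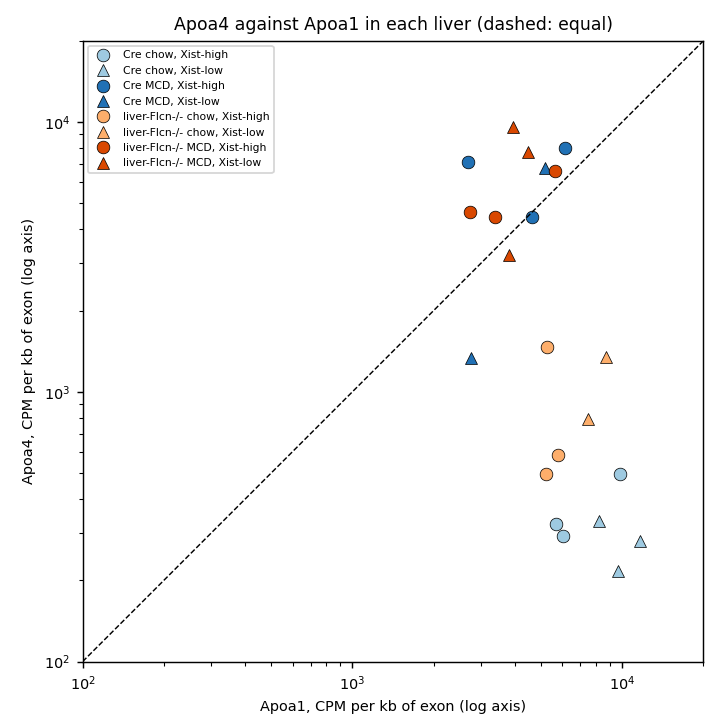
Apoa4 against Apoa1 in each liver, both in CPM per kb of exon free of genes on the same strand, on log axes, with a dashed line of equal levels. Each point is 1 mouse, coloured by group (circles, livers with high Xist; triangles, low Xist). Chow livers all lie well below the line, with ratios up to 0.277, and MCD livers lie around it, with ratios from 0.484 to 2.64.

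Among the protein-coding genes of the chromosome 9 cluster, Apoa4 rose while Apoa1 and Apoc3 fell and Apoa5 did not pass. Gm47528 and Gm10680, which overlap Apoa4 on the other strand, rose with it, by 4.02 and 3.94 on the log2 scale in Cre mice, and by 2.91 and 3.08 without Flcn. The per-length ratio of Apoa4 to Apoa1 had a median of 0.0446 on chow and 1.30 on the MCD diet in Cre mice, and of 0.106 and 1.51 in the liver-Flcn-/- groups. On bases free of genes on both strands these medians were 0.147, 4.30, 0.350 and 4.99. Apoa5, the gene of the cluster farthest from Apoa1, averaged between 1317 and 1539.8 CPM over the 4 groups. Of 3 genes outside the cluster within 100 kb and above 1 CPM, only Zpr1, a zinc finger protein gene next to Apoa5, passed the diet tests. It rose by 1.10 in Cre mice (adjusted p = 1.73e-07) and 0.99 in liver-Flcn-/- mice (adjusted p = 1.57e-06, edgeR). Bud13 (-0.16 and 0.10) and Sik3 (0.00 and 0.03) did not.

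In the chromosome 7 cluster, Apoc1 fell between Apoe and Apoc4, which did not pass. Apoc4, another small apolipoprotein, measured 606 CPM in Cre mice on chow and 528 on the MCD diet (log2 -0.20; adjusted p = 0.193, edgeR), with 0.03 in liver-Flcn-/- mice (adjusted p = 0.848). The per-length ratio of Apoc1 to Apoe had a median of 0.697 and 0.242 in Cre mice on chow and on the MCD diet, and of 0.485 and 0.217 in liver-Flcn-/- mice. Of 8 neighbours outside the cluster, 6 rose with the diet in Cre livers, 5 rose in livers without Flcn, and 0 fell. Of all genes tested, 29.3% rose and 28.2% fell in Cre mice, and 22.5% did each in liver-Flcn-/- mice. A pattern of the region was not tested. Relb, an NF-kappaB subunit gene, rose by 2.10 in Cre mice (adjusted p = 3.13e-08) and by 0.64 in liver-Flcn-/- mice (adjusted p = 0.0139, edgeR).

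**Figure D4:**
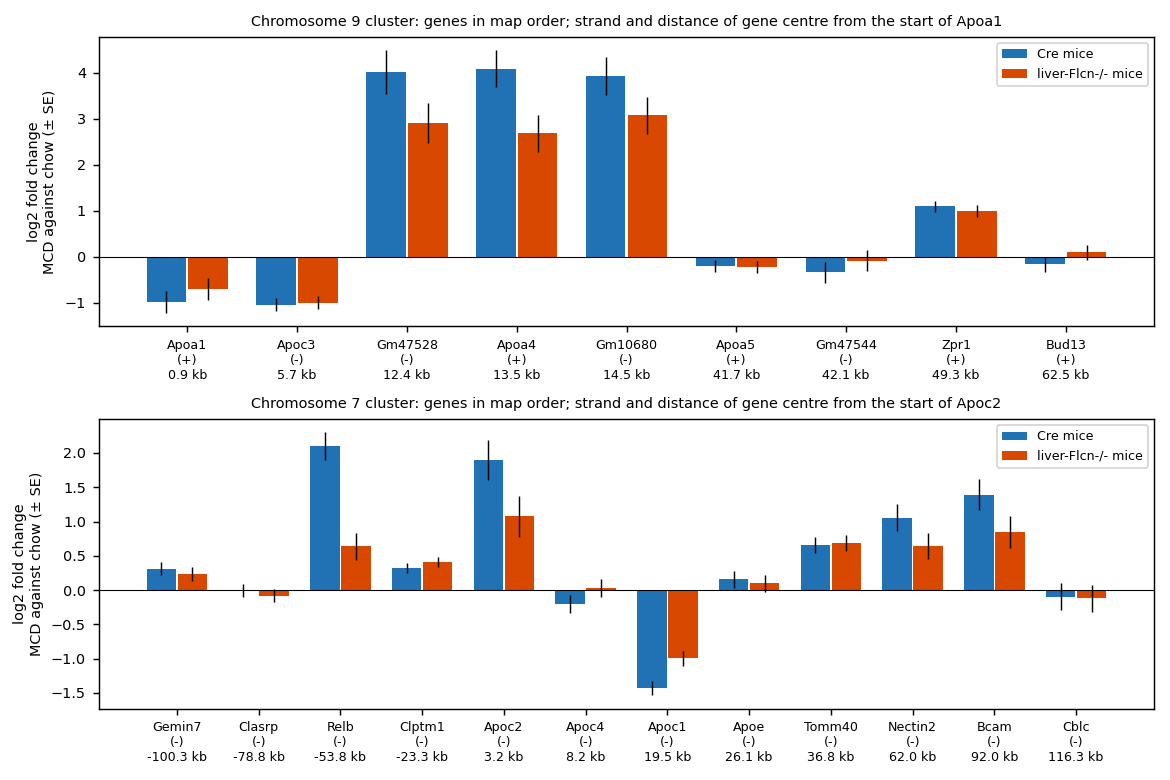
Diet difference (log2, MCD minus chow; bars with SE) of the genes in and around both clusters, in map order, with strand and distance of each gene centre from the start of Apoa1 or Apoc2. Sik3 is not plotted. On chromosome 9, Apoa4 stands above 0 and Apoa1 and Apoc3 below it, and on chromosome 7 Apoc1 stands below 0 beside Apoe and Apoc4 near 0.

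Apoa4 shares bases with 2 genes on the opposite strand, Gm10680 and Gm47528, and 30.2% of its exon bases are free of both. Counts of Gm10680 were 0.378 to 0.914% of those of Apoa4 in all 22 livers. Whether the authors counted by strand is not given in the sources used here, so reads of these genes cannot be told apart. Gm10680 was also the gene most like Apoa4 of 9792 compared, with a Pearson correlation of log2 CPM of 0.985 over the 22 livers. Tmem86a (0.976), which encodes a lysoplasmalogenase of the membrane, Ano10 (0.970), Fkbp1a (0.966) and Plekhm2 (0.966) followed. Tmem86a rose by 2.02 in Cre mice (adjusted p = 3.79e-08) and by 1.65 in liver-Flcn-/- mice on the diet (adjusted p = 1.24e-06, edgeR). These values describe livers that share diets and library scaling.

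Within groups, some members varied together from liver to liver. Deviations of log2 CPM from the group means correlated with r = 0.748 for Apob and Mttp, 0.728 for Apoa2 and Apoc1, and 0.717 for Apoa4 and Apoe over the 22 livers. The lowest value was -0.495, for Apob and Apoc3. The points share library scaling, and the values are descriptions.

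Other genes of lipoprotein metabolism were read from 6 lists, 75 tested genes in all. On the MCD diet 14 rose and 42 fell in Cre mice, against 12 and 34 in liver-Flcn-/- mice. Between genotypes, 3 were higher and 4 lower on chow, and 4 higher and 12 lower on the MCD diet. The lists were chosen with earlier results of these data known, and their counts are descriptions beside the backgrounds given above.

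Other apolipoproteins and HDL proteins were mostly lower on the MCD diet. Of 11 tested, 10 fell in Cre mice, 9 fell in liver-Flcn-/- mice and 0 rose in either. The log2 diet difference in Cre mice was -4.34 for Saa2 and -3.81 for Saa1 (adjusted p = 0.00255 and 0.00357, edgeR). These acute phase proteins of HDL have near-identical genes, so their separate values are uncertain. Saa4, the constitutive member, fell by 1.71 in Cre (adjusted p = 1.63e-07) and 1.86 in liver-Flcn-/- mice (adjusted p = 7.36e-08, edgeR). Pon1, the paraoxonase carried on HDL, fell by 1.70 in Cre mice (adjusted p = 2.47e-06), and Apon by 1.90 in liver-Flcn-/- mice (adjusted p = 2.40e-07, edgeR). Neither Pon1 nor Apon was called in the interaction. Apoh was lower without Flcn on chow (-0.39; adjusted p = 0.0272) and its interaction was 0.58 (adjusted p = 0.0213, edgeR). Apon (-0.79), Saa4 (-0.53) and Apof (-0.38) were lower in liver-Flcn-/- mice on the MCD diet.

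Of 16 partners in VLDL assembly, secretion and Apob mRNA editing, 4 rose and 9 fell in Cre mice, against 3 and 7 in liver-Flcn-/- mice. Sar1b, the GTPase of the vesicles that carry lipoproteins out of the endoplasmic reticulum, fell by 1.31 in Cre mice (adjusted p = 7.91e-11) and by 0.84 in liver-Flcn-/- mice (adjusted p = 6.69e-08, edgeR). It was lower without Flcn on chow (-0.64; adjusted p = 2.25e-05, edgeR), with an interaction of 0.47 (adjusted p = 0.0154). P4hb, the other subunit of the transfer protein complex, rose by 0.89 in Cre mice (adjusted p = 6.79e-08) and 0.59 in liver-Flcn-/- mice (adjusted p = 2.84e-05, edgeR), opposite to Mttp. On the MCD diet P4hb was lower in liver-Flcn-/- mice (-0.44; adjusted p = 0.00208, edgeR). The esterase genes Aadac (-2.11 and -1.75) and Ces1d (-2.18 and -0.70) fell in Cre and in liver-Flcn-/- mice. Ces1d and Ces1g belong to a family of near-identical copies and are uncertain. A1cf, the cofactor of Apob editing, fell by 1.11 in liver-Flcn-/- mice (adjusted p = 2.68e-04, edgeR), but was not called in the interaction. Apobec1, the editing enzyme, was lower in liver-Flcn-/- mice on the MCD diet (-0.61, adjusted p = 0.00180, edgeR).

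Of 13 receptors and uptake genes, 4 rose and 5 fell in Cre mice, against 3 and 7 in liver-Flcn-/- mice. Cd36, the fatty acid and oxidised lipoprotein receptor, rose by 3.24 in Cre mice (adjusted p = 1.64e-08) and by 2.40 in liver-Flcn-/- mice (adjusted p = 2.12e-06, edgeR), and was higher without Flcn on chow (1.23; adjusted p = 0.00855). Lsr (-0.56; adjusted p = 4.19e-04) and Lrp1 (-0.45; adjusted p = 0.0112, edgeR), both receptors of remnants, were lower in liver-Flcn-/- mice on the MCD diet.

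Of 12 lipases, transfer and efflux genes, 2 rose and 5 fell in Cre mice, against 2 and 4 in liver-Flcn-/- mice. Lpl, the lipoprotein lipase that Apoc2 activates, rose by 3.37 in Cre mice (adjusted p = 1.65e-09) and by 1.20 in liver-Flcn-/- mice (adjusted p = 6.32e-04, edgeR). It was higher without Flcn on chow (1.59; adjusted p = 2.57e-04), and the interaction was -2.16 (adjusted p = 0.00117, edgeR). Lipc, the hepatic lipase, fell by 2.41 and 2.01 (adjusted p = 2.93e-10 and 3.56e-09, edgeR). Lmf1, a maturation factor of lipases, fell by 1.82 and 1.17, and was higher in liver-Flcn-/- mice on the MCD diet (0.58; adjusted p = 0.00276, edgeR). Pltp, the phospholipid transfer protein, fell by 1.56 and 1.21 (adjusted p = 0.00128 and 0.00953, edgeR).

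Of 18 transcriptional regulators of apolipoprotein genes, 2 rose and 12 fell in Cre mice, against 2 and 6 in liver-Flcn-/- mice. The interaction called 0 of the 18, Hnf4a included, beside 8.83% of all genes. Hnf4a, the nuclear receptor that drives many of these genes, fell by 0.68 in Cre mice (adjusted p = 7.01e-05, edgeR) and differed by -0.20 in liver-Flcn-/- mice (adjusted p = 0.182). Srebf1 (-1.54 and -1.77), the lipogenic factor, and Foxa2 (-1.44 and -0.68) fell in both. Nr1h3, the liver X receptor, fell by 0.29 and 0.39 (adjusted p = 0.00959 and 0.00141, edgeR). Ppargc1a, a coactivator of oxidative metabolism, rose by 0.55 and 1.05 (adjusted p = 0.0257 and 3.14e-04), and was higher in liver-Flcn-/- mice on the MCD diet (1.10; adjusted p = 9.61e-04, edgeR). Creb3l3, an activator of Apoa4, differed by -0.02 in Cre mice (adjusted p = 0.944) and 0.16 in liver-Flcn-/- mice (adjusted p = 0.461, edgeR).

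Of 5 further target genes of Creb3l3 tested, 2 rose and 1 fell in each genotype. Cidec, a lipid droplet protein, rose by 6.81 and 4.47 (adjusted p = 1.79e-09 and 5.00e-07, edgeR), with an interaction of -2.34 (adjusted p = 0.0423). Fgf21, a hormone of the fasted liver, rose by 4.33 and 3.50 (adjusted p = 2.66e-07 and 2.00e-05, edgeR). Acsl1, a long-chain acyl-CoA synthetase, fell by 1.62 and 0.63 (adjusted p = 8.45e-08 and 0.00320, edgeR).

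**Figure D5:**
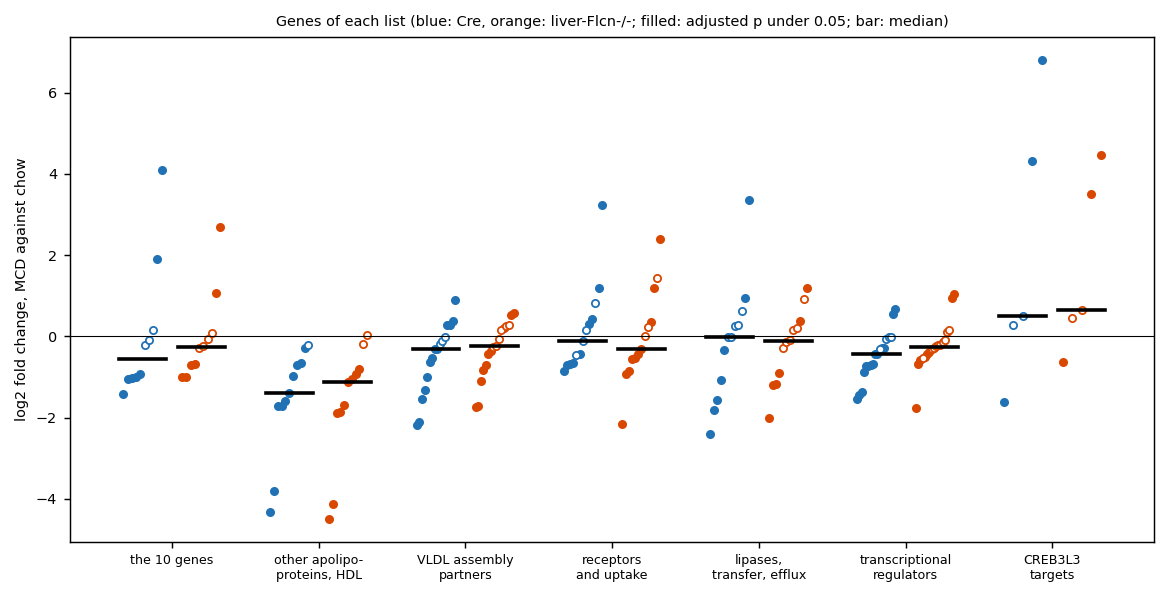
Log2 diet differences of the tested genes of the 6 lists and of the 10 members, in Cre (blue) and liver-Flcn-/- mice (orange). Each point is 1 gene, bars are medians, and filled points have an adjusted p under 0.05. All but 1 of the 11 other apolipoprotein and HDL genes fell in Cre mice, while Cd36, Lpl, Cidec and Fgf21 stand with Apoa4 among the genes that rose.

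Markers of some cell types that a liver library can hold also differed with the diet. Summed hepatocyte markers measured 142030 ± 22514 CPM in Cre mice on chow and 105060 ± 14640 on the MCD diet, and 121320 ± 21681 and 90008 ± 10981 in liver-Flcn-/- mice. Of the 9 tested, 1 rose and 6 fell with the diet in Cre mice, against 1 and 5 without Flcn. Between genotypes 1 was higher and 3 lower on chow, and 0 higher and 1 lower on the MCD diet. The interaction was called higher for 2 and lower for 1. The sums and calls are on TMM scaling. By share of all counts, Alb held 8.58% in Cre mice on chow and 8.27% on the MCD diet. In liver-Flcn-/- mice it held 8.025% and 6.36%. In bulk livers, fewer cells of a type, less RNA per cell and the scaling of the libraries cannot be told apart. When libraries were scaled to these markers, the median of all genes moved by 0.43 in Cre and 0.41 in liver-Flcn-/- mice. Macrophage markers summed to 511, 733, 570 and 585 CPM in Cre chow, Cre MCD, liver-Flcn-/- chow and liver-Flcn-/- MCD livers, with Cd5l the most abundant. Stellate cell markers, led by Dcn, summed to 314, 560, 350 and 410 CPM. Of 9 macrophage markers, 4 rose and 1 fell with the diet in Cre mice, against 2 and 3 without Flcn, and the interaction was called, lower, for 4. Without Flcn, 2 were higher and 0 lower on chow, and 0 higher and 3 lower on the MCD diet. Of 7 stellate cell markers, 5 rose in Cre mice against 1 without Flcn, and the interaction was lower for 3. Between genotypes 0 were called on chow, and 0 were higher and 4 lower without Flcn on the MCD diet. Of 5 endothelial markers, 3 fell in Cre mice against 4 without Flcn, with 0 called in the interaction. Of 4 cholangiocyte markers, 2 rose in Cre mice and 0 were called without Flcn, with 0 in the interaction. All 7 skeletal muscle markers were higher with the diet in Cre mice and lower without Flcn on the MCD diet, with 0 called in the interaction. Their sums in Cre livers on the MCD diet ran from 0.7685 to 2426 CPM, with a median of 15.3. The highest was replicate 3, and Cre livers on chow lay between 1.26 and 4.74 CPM. Of 4 lymphocyte markers, which summed to at most 5.22 CPM on average, 0 were called in Cre mice and 3 fell without Flcn, also with 0 called in the interaction. The part of these cells in the member values, among them the lower Apoc2 without Flcn on the MCD diet, was not tested. Enterocytes also express Apoa4. Of 6 enterocyte markers, 5 had a row, and Alpi and Sis had 0 counts in every library. Fabp2, the most abundant, measured 112 and 141 CPM in Cre mice on chow and on the MCD diet, and 84.8 and 125 CPM in liver-Flcn-/- mice. Vil1 measured 0.372 and 2.33 CPM in Cre mice, against 0.311 and 2.84 CPM without Flcn. Both tested markers, Fabp2 and Vil1, were called higher with the diet in liver-Flcn-/- mice, and Vil1 in Cre mice. Their part in the Apoa4 values was not tested.

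Both sexes were present in each group by Xist. Each group held 3 females. Males numbered 3 on chow and 2 on the MCD diet among Cre mice, and 2 and 3 among liver-Flcn-/- mice. All male chow libraries had the low share of uniquely mapped reads given above, and the male MCD libraries did not. Diet and mapping thus cannot be told apart in males. The values for females include the 5 high-Xist livers with Y-linked counts, whose part in them was not tested. The Apoa4 diet rise was called in each sex: 4.14 in females and 3.88 in males among Cre mice (adjusted p = 5.27e-06 and 0.00116), and 2.63 and 2.66 among liver-Flcn-/- mice (adjusted p = 2.26e-04 and 0.0177, edgeR). In males, Apoa1 fell by 1.29 in Cre mice (adjusted p = 0.00410) and fell by 1.00 in liver-Flcn-/- mice (adjusted p = 0.0164, edgeR), with -0.68 (adjusted p = 0.0907) and -0.47 (adjusted p = 0.254, edgeR) in females. Apoc2 rose by 2.31 in female Cre mice (adjusted p = 3.76e-05), while the 1.21 in male Cre mice was not called (adjusted p = 0.0536, edgeR). A difference between the sexes was not tested. Without those 5 livers, the Apoa4 diet difference in both sexes together was 4.16 in Cre mice (adjusted p = 3.30e-06) and 2.85 without Flcn (adjusted p = 8.09e-04, edgeR).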

How the data were processed

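Libraries were made with a KAPA mRNA kit and read single-end on a NextSeq500. The authors trimmed reads with Trimmomatic, aligned them to GRCm38 with STAR and deposited raw HTSeq counts per gene. Versions, strand setting and use of the molecular indices are not given in the sources used here. From these counts, edgeR 4.0.16 (R 4.3.3; TMM, quasi-likelihood, Benjamini-Hochberg over 14062 genes, each averaging 10 or more counts) was fitted to all 22 libraries. All 10 members passed this filter. The 95% intervals used 18 degrees of freedom. P-values measure the spread between mice. CPM used a prior count of 2 on the log2 scale for exact permutation tests. These 40 tests were first adjusted together, which passed 19, and the criterion was changed to unadjusted p, which passed 20, after that count was known; the added call was Apoc2 between genotypes on the MCD diet. The members and lists were chosen with earlier results of these data known. Each list named up to 4 called genes of largest change per comparison with a mean of at least 1 CPM, plus a few genes given whatever their values. Some genes these rules name are not reported here. The 5 genes most like Apoa4 needed 5 CPM. Neighbours were taken by distance, within 100 kb of a cluster. Around the chromosome 9 cluster each neighbour above 1 CPM is named. Around the chromosome 7 cluster only Relb is named, which had the highest diet value in Cre mice among those above 1 CPM. Fits were tested on simulated data. Alternatives used DESeq2 1.42.0, limma 3.58.1, other scalings, filters and left-out libraries.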

Additional observations from a re-analysis of the deposited data

Results flagged for a closer look

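In 3 of 40 groups of livers checked, 1 liver stood far from the others of its group, where chance gives about 1 in 20 groups. Apoc1 measured 1529 CPM in replicate 4 of the liver-Flcn-/- mice on the MCD diet, while the other livers of the group lay between 1918 and 2176. Apoc3 measured 2831 CPM in replicate 4 of the Cre mice on chow, with the others between 1743 and 2079. Mttp measured 308 CPM in replicate 2 of the Cre mice on chow, with the others between 377.7 and 422. The diet difference of Apoa2 was called different between genotypes, with an interaction of 0.63 on the log2 scale. As given above, several fits that left out 1 mouse lost this call. It was also lost with the replicate block (0.65, adjusted p = 0.0851, edgeR).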

How the results depend on the processing

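The 50 member values (10 members in 5 comparisons, 17 of them called) gave 1840 values under 37 other settings. None of the called values changed sign (0 times), and values not called did so 108 times. The number of members called on the MCD diet stayed between 6 and 9 in Cre mice and between 5 and 7 in liver-Flcn-/- mice. Apob in Cre mice turned to 0.33 without TMM factors, where the median of all genes moved by 0.42. Between genotypes on chow, the count of 2 was 1 with no filter, a mean count of at least 50, hepatocyte scaling or no TMM factor, 0 without the 5 low-mapping libraries, in females alone and in males alone, and between 0 and 3 when 1 mouse was left out. On the MCD diet, the count of 1 was 0 with only the compared groups fitted and in males alone, and 0 to 2 when 1 mouse was left out. For the interaction, the count of 1 was 3 with DESeq2, 0 with no filter, a mean count of at least 50, hepatocyte scaling, no TMM factor, without the 5 low-mapping libraries and in either sex alone, and 0 to 2 when 1 mouse was left out. Without the 5 high-Xist libraries with Y-linked counts, chosen after those counts were seen, each of these 3 counts was 0, with fewer mice. In each case the cause was not tested. The exact tests under 0.05 numbered 19 to 21 when 1 mouse was left out. Replicate numbers name different mice and did not pair them, since deviations of same-numbered mice correlated between -0.551 and 0.47 over the 4 comparisons. Between genotypes on the MCD diet all 5 pairs were positive, from 0.0621 to 0.262. With the replicate block, the calls were 1 on chow, 0 between genotypes on the MCD diet and 0 in the interaction. Depth limits Apoc2, with 19 to 394 counts.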
